A study of Mus musculus with 8 samples.

Results

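The distal ATAC-seq peaks listed only after RGFP966 + KLA were 1846 of the 9698 merged peaks of WT bone marrow-derived macrophages (BMDMs), and of 34565 peaks in the 2 deposited tables. The authors called peaks in each condition with IDR, which keeps peaks that rank alike in replicate libraries, merged the sets, and listed for every merged peak the sets it came from. A peak was taken when it was in the RGFP966 + KLA set, in neither the Veh set nor the KLA set, and more than 2000 bp from the nearest transcription start site (TSS). The RGFP966 + KLA set held 7869 peaks, against 5092 in the KLA set and 4743 in the Veh set. Of the 2908 peaks listed with RGFP966 + KLA alone, 1050 lay within 2 kb of a TSS, 12 had no TSS distance, and the remaining 1846 are described here.

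ATAC-seq uses a transposase that cuts and tags open DNA, so that tags pile up where nucleosomes are displaced. Distal accessible regions of macrophages are often enhancers, opened by the lineage factors PU.1, C/EBP and AP-1 and, after a Toll-like receptor signal, by NF-kB and newly made AP-1. HDAC3 is the histone deacetylase of the NCoR corepressor complex, which restrains many inflammatory genes in resting macrophages. KLA (Kdo2 lipid A) is a pure agonist of TLR4, and RGFP966 is an inhibitor selective for HDAC3.

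WT BMDMs came from the marrow of C57BL/6 mice aged 8 to 12 weeks and were serum-starved for 12 h in 1% serum. The 3 groups were Veh, KLA at 100 ng/mL for 6 h, and RGFP966 + KLA, with RGFP966 added at the start of the starvation, and each had 2 libraries. The titles of the third group name RGFP966, while its treatment entry names KLA only. RGFP966 without KLA was not analysed here, and every group was serum-starved. The sources do not say whether the libraries of a group came from separate mice or cultures, so the tests below measure only the spread between these libraries. A separate table holds 2 Veh libraries of BMDMs with the genotype NCoR1 flox/flox (NCoR f/f), the controls of myeloid NCoR knockout (NKO) cells. The libraries of the tables carry different library dates.

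Tags in peaks were most numerous in the RGFP966 + KLA libraries (202523 and 194208), followed by KLA (187022 and 116733) and Veh (128949 and 121106). The share of all tags that fell in peaks was between 1.40% and 2.06%. Since IDR peaks are found more easily in deeper libraries, depth and treatment cannot be told apart as the origin of a listing with RGFP966 + KLA alone.

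All 1846 peaks passed the filter on low counts (4 tags or more in some library), and a listing in one set did not mean that tags were missing elsewhere. At 0 in both Veh libraries were 8 of them, and none was at 0 in both KLA libraries. The number with no tag was 57 and 61 for the Veh libraries and 2 and 19 for KLA, where a count of 0 allows up to 3 tags. It was 0 for either RGFP966 + KLA library, whose lowest counts were 7 and 6 tags. The median peak had 5 tags in each Veh library, 10 and 6 with KLA alone, and 15 and 14 with RGFP966 + KLA. The name "found only with RGFP966 + KLA" therefore holds for the peak lists and not for the tags, and the peaks are called here the RGFP966 + KLA-listed distal peaks.

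The sequences of peaks with a large difference between RGFP966 + KLA and KLA are shown as examples of the extremes and not of the typical peak. Below is the central 200 bp, plus strand of mm10, of the 6 with the largest fold change whose libraries did not overlap, whose mean was at least 20 tags and whose center held one of the 10 motifs searched. Capitals mark the matches. The coordinates of the windows are chr14:122747914-122748113 (Gm15735), chr1:79701761-79701960 (Ap1s3), chr3:137833202-137833401 (H2afz), chr8:81751248-81751447 (Inpp4b), chr11:50213022-50213221 (Sqstm1) and chr10:56486613-56486812 (Gm36595).
Gm15735: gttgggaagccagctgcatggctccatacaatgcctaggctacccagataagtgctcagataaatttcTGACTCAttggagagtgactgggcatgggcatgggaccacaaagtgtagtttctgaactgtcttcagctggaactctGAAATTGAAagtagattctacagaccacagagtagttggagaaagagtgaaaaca
Ap1s3: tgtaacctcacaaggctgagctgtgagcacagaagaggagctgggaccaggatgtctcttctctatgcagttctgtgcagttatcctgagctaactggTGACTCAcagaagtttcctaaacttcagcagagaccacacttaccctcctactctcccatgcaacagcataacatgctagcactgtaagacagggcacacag
H2afz: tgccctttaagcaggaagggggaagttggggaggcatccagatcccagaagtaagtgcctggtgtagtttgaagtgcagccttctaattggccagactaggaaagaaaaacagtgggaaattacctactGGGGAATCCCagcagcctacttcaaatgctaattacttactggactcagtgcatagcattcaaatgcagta
Inpp4b: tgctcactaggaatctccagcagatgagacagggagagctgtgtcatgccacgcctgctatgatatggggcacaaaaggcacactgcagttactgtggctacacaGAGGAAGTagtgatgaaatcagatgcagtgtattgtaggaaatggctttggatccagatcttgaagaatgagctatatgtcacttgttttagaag
Sqstm1: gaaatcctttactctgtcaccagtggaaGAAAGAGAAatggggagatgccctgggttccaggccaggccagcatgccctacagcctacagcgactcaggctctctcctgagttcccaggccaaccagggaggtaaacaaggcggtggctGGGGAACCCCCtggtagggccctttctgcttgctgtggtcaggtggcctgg
Gm36595: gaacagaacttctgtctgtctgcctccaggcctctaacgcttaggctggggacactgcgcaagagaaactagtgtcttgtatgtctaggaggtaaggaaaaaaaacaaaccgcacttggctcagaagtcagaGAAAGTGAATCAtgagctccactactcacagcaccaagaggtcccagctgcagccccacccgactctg

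The capitals are an AP-1 match (bases 69 to 75) and an IRF match (146 to 154) for Gm15735, and an AP-1 match (99 to 105) for Ap1s3. In the H2afz window the NF-kB p65 consensus matched on both strands (130 to 139), and in the Inpp4b window the PU.1 string matched (106 to 113). The Sqstm1 window held overlapping NF-kB p65 matches (150 to 160) and an IRF match (29 to 37). In the Gm36595 window an IRF match (133 to 141) overlapped an AP-1 match (138 to 144), so that both appear as one run of capitals.

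Gm15735, a predicted gene, is the nearest gene to a peak (chr14:122747910-122748117) in an intron of a noncoding transcript, 165017 bp from the TSS. It had 2 and 1 tags at Veh, 2 and 1 at KLA, and 29 and 15 at RGFP966 + KLA. The RGFP966 + KLA libraries were far above the other 4, and the ratio of pooled tags to KLA was 11.2 (95% exact counting interval 3.60 to 56.5). Ap1s3 encodes a subunit of the clathrin adaptor complex AP-1, which is unrelated to the transcription factor of that name. The peak nearest to its TSS (chr1:79701733-79701987), 29888 bp upstream and at the 3′ end of the neighboring gene Wdfy1, had 6 and 3 tags at Veh, 2 and 6 at KLA, and 24 in each RGFP966 + KLA library. Veh and KLA overlapped there, and RGFP966 + KLA lay above both.

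H2afz encodes the histone variant H2A.Z. The intergenic peak nearest to it (chr3:137833198-137833405, 31186 bp from the TSS) had 2 and 4 tags at Veh, 8 and 3 at KLA, and 31 and 22 at RGFP966 + KLA. The intronic peak of Inpp4b (chr8:81751245-81751450), which encodes a phosphoinositide phosphatase, had 6 and 8 tags at Veh, 8 and 3 at KLA, and 36 and 15 at RGFP966 + KLA. Its RGFP966 + KLA libraries differed from each other by more than 2-fold in normalized tags, that is tags per 1000000 tags in peaks (178 and 77.2), yet both exceeded the other 4 libraries. The Sqstm1 peak (chr11:50212942-50213301) lay 2301 bp from the TSS of the gene for the autophagy receptor p62, with 8 and 13 tags at Veh, 7 and 7 at KLA, and 33 and 22 at RGFP966 + KLA. At Gm36595, a predicted gene, the peak (chr10:56486599-56486825) overlapped an LTR repeat and had 4 and 2 tags at Veh, 8 and 3 at KLA, and 23 and 20 at RGFP966 + KLA. Veh and KLA overlapped at the H2afz and Gm36595 peaks.

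Among peaks with non-overlapping libraries and a mean of at least 20 tags, 4 of the 10 largest differences remain. They were near Zfp958, a zinc finger gene, Pcdh1, a protocadherin, Cenpe, a kinetochore motor, and Cst11, a cystatin. At the Cenpe peak, for example, 10 and 10 tags at Veh stood against 4 and 8 at KLA and 20 and 23 at RGFP966 + KLA, so that KLA was the lowest group in normalized tags (80.1 at Veh, 45.0 at KLA, 109 at RGFP966 + KLA). These 10 were chosen by this difference, which is therefore given without a test.

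**Figure D1:**
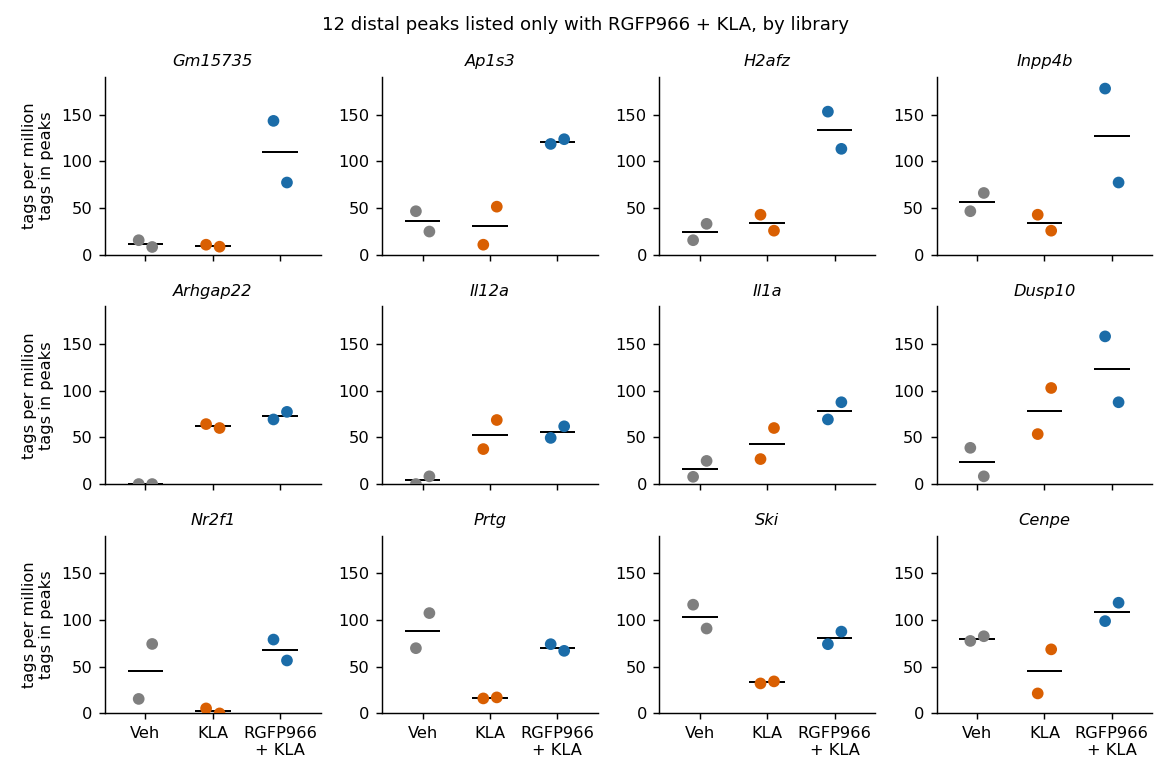
Normalized tags per 1000000 tags in peaks (vertical axis, the same in every panel) at 12 RGFP966 + KLA-listed distal peaks, named by nearest gene, in each library (points) of Veh, KLA and RGFP966 + KLA, with the mean of each pair (line). The top row holds the 4 largest fold changes between RGFP966 + KLA and KLA among peaks with non-overlapping libraries and a mean of at least 20 tags. Nr2f1, below that mean, had a larger fold change. Arhgap22 and Il12a were near 0 at Veh and had similar levels in the other groups, and Nr2f1, Prtg and Ski were lowest at KLA.

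Over all 1846 peaks, the share of tags was lowest at Veh, higher at KLA and highest at RGFP966 + KLA. They held 8.26% and 8.43% of the tags in peaks of the Veh libraries, 10.4% and 9.66% of the KLA libraries, and 14.2% of each RGFP966 + KLA library. The means were 8.35% ± 0.121, 10.0% ± 0.519 and 14.2% ± 0.0186 (SD, n = 2), and the libraries of the groups did not overlap. Median normalized tags were 38.8 and 41.3 at Veh, 53.5 and 51.4 at KLA, and 74.1 and 72.1 at RGFP966 + KLA. Relative to all tags of a library, the groups were less separate, with 1705 and 1184 of 1000000 tags at Veh, 1826 and 1390 at KLA, and 2611 and 2545 at RGFP966 + KLA, so that Veh and KLA overlapped on this scale. The rule for the peaks fixes that RGFP966 + KLA is high, so these shares describe the peaks and are no test.

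**Figure D2:**
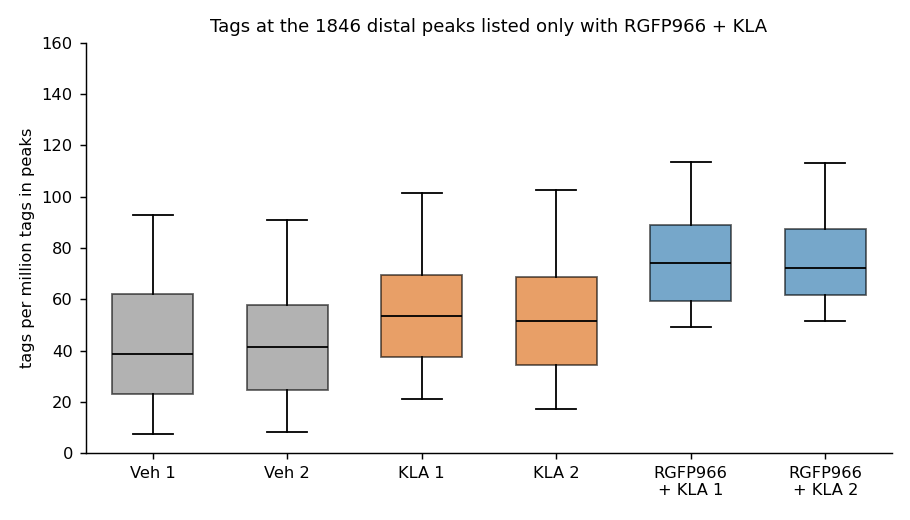
Normalized tags per 1000000 tags in peaks (vertical axis) over the 1846 RGFP966 + KLA-listed distal peaks, for each of the 6 WT libraries. Boxes span the quartiles with the median as a line, and whiskers the 5th to 95th percentile. Medians were 38.8 and 41.3 at Veh, 53.5 and 51.4 at KLA, and 74.1 and 72.1 at RGFP966 + KLA, and the boxes of Veh and KLA overlap widely.

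The fitted changes were small for most peaks. The median log2 fold change was 0.33 from Veh to KLA, 0.49 from KLA to RGFP966 + KLA and 0.80 from Veh to RGFP966 + KLA, where all distal peaks had 0.13, 0.10 and 0.24 and all 9698 peaks had 0.02, 0.03 and 0.04. With the 8 peaks that had no tag at Veh set to a bound from 3 tags, the medians against Veh were 0.32 and 0.80. With loess offsets, which remove trends with tag level, the 3 medians were 0.21, 0.28 and 0.46. Of the 1846, 65.5% were above 0 in the first of these comparisons and 86.2% in the second. By group means, 994 peaks (53.8%) had the order Veh, KLA, RGFP966 + KLA, and 489 (26.5%) had the order KLA, Veh, RGFP966 + KLA. KLA was the highest group at 211 peaks and Veh at 152, although none of these was in the KLA or Veh set. The comparisons share libraries, so their values are given side by side only.

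Peaks were called with edgeR's quasi-likelihood test when the p-value, adjusted by Benjamini-Hochberg, was below 0.05 and the change exceeded 2-fold. For KLA against Veh, 66 of the 1846 rose (3.58%), against 5.68% of all distal peaks and 3.30% of all 9698 peaks. Another 3 fell (0.163%), against 2.18% of all distal peaks and 1.73% of all peaks. For RGFP966 + KLA against KLA, 16 were higher (0.867%), against 0.360% of all distal peaks and 0.237% of all peaks. For RGFP966 + KLA against Veh, 376 were higher and 0 lower, against 6.89% of all peaks higher. The share of all peaks called lower in that comparison is not given, so the 0 is not read as particular to these peaks. The rule used the sets of all 3 conditions, so nothing is read from these counts. DESeq2, with its own size factors, called 0 of them in each comparison, and also 0 of all 9698 peaks. At an unadjusted p-value under 0.05 DESeq2 had 89, 44 and 263 of the 1846, where edgeR had 333, 411 and 764. With loess offsets the 16 became 9 and the 376 became 146, while 23 and 394 of all peaks were called higher. Single libraries also moved these counts and those over all peaks. Without KLA replicate 1 or RGFP966 + KLA replicate 1 the 16 became 0, and without KLA replicate 2 or RGFP966 + KLA replicate 2 they became 4 and 3. The 66 became 16, 22 and 18 without Veh replicate 1, Veh replicate 2 and KLA replicate 1. The 376 became 121 and 169 without Veh replicate 1 and 2, and 157 and 147 without RGFP966 + KLA replicate 1 and 2.

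Without a model, both KLA libraries lay above both Veh libraries at 610 peaks (25.3% of all 9698 did) and below them at 197 (22.6% of all). Both RGFP966 + KLA libraries lay above both KLA libraries at 1012 peaks (54.8%), against 30.4% of all distal peaks and 25.7% of all. They lay below them at 34 (1.84%, against 18.6% and 20.1%). They lay above both Veh libraries at 1218 (66.0%, against 40.2% and 30.0%). Thus at 834 of the 1846 peaks the RGFP966 + KLA libraries did not both exceed the KLA libraries, even though the KLA set lists none of them. Of the 66 peaks that rose for KLA against Veh, 62 were also higher for RGFP966 + KLA against Veh, a comparison with the same Veh libraries. The rule also favors a high RGFP966 + KLA level, and the share over all peaks is not given, so nothing is read from this count.

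Among the peaks called for KLA against Veh, the 5 with the largest fold change had no tag in either Veh library. An intronic peak of Arhgap22 (chr14:33288016-33288236), a GTPase-activating protein, had 12 and 7 tags at KLA and 14 and 15 at RGFP966 + KLA. Against 3 tags over both Veh libraries, it was at least 5.21-fold higher at KLA and at least 6.09-fold higher at RGFP966 + KLA. The peaks of Erg (chr16:95415994-95416233), an ETS transcription factor, Ube2z (chr11:96058392-96058600), a ubiquitin-conjugating enzyme, Sephs1 (chr2:4820276-4820568), a selenophosphate synthetase, and Ktn1 (chr14:47638553-47638778), which encodes kinectin, were at least 3.57-, 3.29-, 3.02- and 2.74-fold higher at KLA. Their KLA libraries held 3 to 9 tags. Matches to AP-1 were in the central 200 bp of 4 of these 5 peaks and to NF-kB p65 in 3. Of the 1841 peaks with sequence, 37.5% and 7.17% held such a match, and 5 extremes are too few to compare with them.

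The 3 peaks that fell for KLA against Veh were named after Nr2f1, Prtg and Ski, and KLA was their lowest group. The peak nearest to Nr2f1 (chr13:78163113-78163315), which encodes an orphan nuclear receptor, lay in an intron of the neighboring gene Fam172a and had 2 and 9 tags at Veh, 1 and 0 at KLA, and 16 and 11 at RGFP966 + KLA. The ratio of pooled tags between KLA and Veh was 0.0748 (95% exact counting interval 0.00174 to 0.515). The intergenic peak near Prtg (chr9:72791773-72791978), which encodes protogenin, had 9 and 13 tags at Veh, 3 and 2 at KLA, and 15 and 13 at RGFP966 + KLA. Ski, a corepressor of SMAD signaling, had an intronic peak (chr4:155187186-155187521) with 15 and 11 tags at Veh, 6 and 4 at KLA, and 15 and 17 at RGFP966 + KLA. At all 3 the KLA libraries lay below the other 4.

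Distal peaks with other listings differed from these in the order of the groups. The 725 distal peaks listed with KLA and RGFP966 + KLA but not Veh held 4.52% and 4.60% of tags in peaks at Veh, 7.89% and 7.92% at KLA, and 7.61% and 7.52% at RGFP966 + KLA. Those listed with KLA alone (426) held 2.16% and 2.11%, 3.59% and 3.85%, and 2.34% and 2.22%. Those listed in all 3 conditions (808) held 14.8% and 16.6%, 14.2% and 15.9%, and 13.4% and 13.6%. Each class was highest in a condition that lists it, which its choice favors. The median of 15 and 14 tags per RGFP966 + KLA-listed peak in its own libraries compares with 20 and 19 where KLA lists the peak too and 26 and 25 in the class of all 3 conditions, so the RGFP966 + KLA-listed peaks had fewer tags than both classes in the libraries where they were found.

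**Figure D3:**
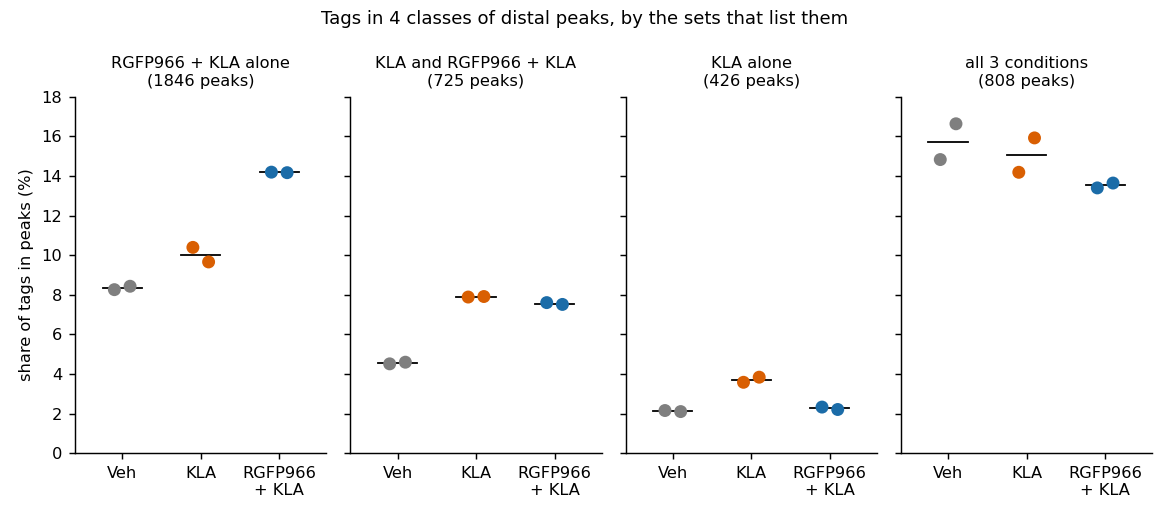
Share of a library's tags in peaks (vertical axis, %) that fell in 4 classes of distal peaks, by the sets that list them, for each library (points) and the mean of each pair (line). The RGFP966 + KLA-listed class went from 8.35% at Veh to 10.0% at KLA and 14.2% at RGFP966 + KLA, while the class of KLA and RGFP966 + KLA held 7.89% and 7.92% at KLA and 7.61% and 7.52% at RGFP966 + KLA.

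The libraries of a group were only loosely alike over these peaks. On log2 of normalized tags plus 10, Pearson's r across the 1846 peaks, which are not independent replicates, was 0.50 between the Veh libraries, 0.33 between the KLA libraries and 0.37 between the RGFP966 + KLA libraries, and between 0.16 and 0.31 for libraries of different groups. All libraries share the low counts of these peaks. Squared differences between replicates, divided by their counting error, averaged 1.12 at Veh and 1.20 at KLA, close to the 1 of counting noise, and 0.660 at RGFP966 + KLA. IDR had chosen the peaks for ranking alike in the RGFP966 + KLA libraries, and its part in the lower value was not tested.

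The rule used a distance threshold but no peak score, and no WT peak scored below the lowest of these peaks (540). The score that the table gives each merged peak, from 540 to 1000, had a median of 732.5 over the 1846 peaks, against 838.5 in the class of KLA and RGFP966 + KLA and 928 in the class of all 3 conditions. The 128 peaks with a score under 560 had a median of 12 tags in each RGFP966 + KLA library and 9 and 5 in the KLA libraries. The 336 with a score of 1000 had 19 and 18 against 12 and 7. On the distance side, the peaks just beyond 2000 bp were near Ugt1a1 (2004 bp), Sept9 (2019 bp) and Fli1 (2031 bp), with 16 and 15, 19 and 16, and 13 and 17 tags at RGFP966 + KLA. Those just within were near Mir3072 (1993 bp), Slc30a3 (1958 bp) and Lgals3 (1952 bp), with 14 and 17, 16 and 12, and 21 and 14.

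A few of the strongest peaks lay in repeated or multicopy sequence, where the place of a tag is uncertain. The highest was in the 45S ribosomal RNA gene Rn45s (chr17:39847662-39847934), with 76 and 115 tags at Veh, 130 and 75 at KLA, and 123 and 106 at RGFP966 + KLA, so that the groups overlapped in tags and RGFP966 + KLA was the lowest in normalized tags (577, against 769 at Veh and 669 at KLA). A satellite repeat nearest to Gm5458 had 22 and 38, 37 and 36, and 54 and 49 tags. There were also 2 peaks at Sfi1 and 5 on an unplaced scaffold near the pseudogene Pisd-ps3. At 1 of the Sfi1 peaks (chr11:3189574-3189945) both RGFP966 + KLA libraries lay below the other 4 in normalized tags (237 and 221, against 241 to 343), and at the Pisd-ps3 peak with the most tags at Veh they did too (193 and 196, against 225 to 266). Of the 10 peaks highest at RGFP966 + KLA, 6 were in these places. Of the remaining 4, a peak in an intron of the noncoding gene 9030404E10Rik (chr16:30024801-30025157) had 7 and 9 tags at Veh, 18 and 5 at KLA, and 35 and 30 at RGFP966 + KLA, and a peak with a CpG island upstream of the glycolytic gene Gpi1 (chr7:34234025-34234357) had 12 and 8, 20 and 6, and 28 and 37. At both the RGFP966 + KLA libraries were above the other 4. The other two overlapped with Veh. At the peak near Mylk2, a myosin light chain kinase, Veh replicate 2 was the highest library (198 normalized tags, against 183 and 165 at RGFP966 + KLA). At that near Scaf11, a splicing factor, RGFP966 + KLA replicate 1 (114) was below replicate 2 of Veh (116) and of KLA (120).

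By the deposited annotation 897 of the 1846 peaks were intergenic (48.6%) and 876 intronic (47.5%), as in all distal peaks (48.6% and 47.4%). The remainder were at transcription termination sites (27), 3′ UTRs (23), exons (15), noncoding exons (6) and 5′ UTRs (2). The median distance to a TSS was 28500.5 bp against 25583 bp for all distal peaks, and 32.7% against 29.6% lay more than 50 kb away. They were narrower, with a median width of 232 bp against 257 bp, and had a median GC content of 48.5% against 49.0%. A CpG island was annotated at 2.49% of them and at 6.93% of the distal peaks listed in all 3 conditions, and a satellite repeat at 0.271% and 6.81%. On chromosomes 1 to 19 and X, they made up between 34.8% and 45.7% of the distal peaks. Of the 1846, 802 had no other WT peak within 50 kb, 828 had a peak of the Veh or KLA set within that distance, 396 had another RGFP966 + KLA-listed distal peak within 50 kb, and 124 had one within 10 kb.

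The motif searches, on both strands of the central 200 bp, covered 1841 peaks, those on assembled chromosomes. The AP-1 string TGANTCA was in 37.5% of them (690, 95% Wilson interval 35.3% to 39.7%). All distal peaks had 32.6%, the class of KLA and RGFP966 + KLA 35.8% (32.4% to 39.4%), KLA alone 29.2% (25.1% to 33.7%), all 3 conditions 29.5% (26.3% to 32.9%), and all 9527 peaks with sequence 18.2%. The interval for the RGFP966 + KLA-listed peaks lay above those of the classes of KLA alone and all 3 conditions and overlapped that of KLA and RGFP966 + KLA. Over the whole peak it (38.3% to 42.8%) also overlapped those of KLA alone (29.4% to 38.4%) and all 3 conditions (31.8% to 38.6%). There the class of KLA and RGFP966 + KLA had the higher share, 42.0% against 40.5%. No test was made between classes.

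The NF-kB p65 consensus was in 7.17% of the peaks (6.08% to 8.44%), between the 9.97% (7.98% to 12.4%) of the class of KLA and RGFP966 + KLA and the 4.02% (2.83% to 5.68%) of the class of all 3 conditions, where all distal peaks had 6.10%. The other strings were near the shares of all distal peaks. C/EBP (TTGCNNAA) was in 16.4% against 16.3%, PU.1 (GAGGAAGT) in 11.4% against 12.1%, RUNX (TGTGGTT) in 10.6% against 10.5%, IRF (GAAANNGAA) in 8.42% against 8.31%, and the GC box (GGGCGG) in 8.80% against 10.0%. The E-box (CACGTG), the CTCF consensus and the CRE (TGACGTCA) were in 3.80%, 1.58% and 0.978%, against 4.35%, 0.995% and 0.822% of all distal peaks. Of the 1841, 446 held none of the 10, 129 held more than 1 AP-1 match and 37 held both AP-1 and NF-kB p65. The strings overlap in part (an AP-1 match can share bases with an IRF match), and a match is a description of the letters and not a bound site.

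**Figure D4:**
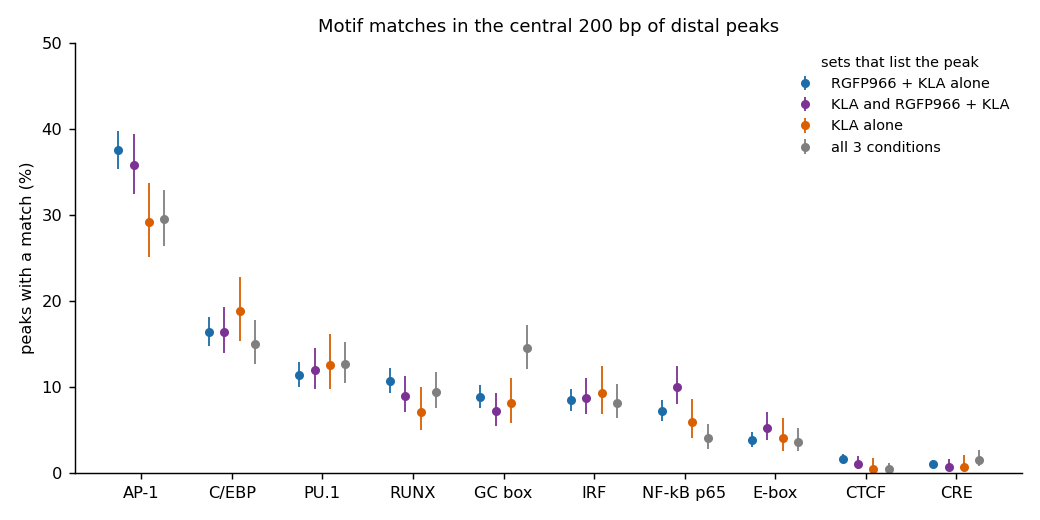
Share of distal peaks (vertical axis, %) whose central 200 bp hold a match to each of 10 motifs, in 4 classes by the sets that list the peak, with 95% Wilson intervals. AP-1 was the most frequent in every class, at 37.5% in the RGFP966 + KLA-listed peaks, and NF-kB p65 was highest in the class of KLA and RGFP966 + KLA (9.97%).

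The KLA response is described here with and without each match, with no test. The 132 peaks with an NF-kB p65 match had a median log2 fold change for KLA against Veh of 0.79, and the 1709 without had 0.30. For RGFP966 + KLA against KLA the medians were 0.56 and 0.49. Of those with a match 9 were called higher for KLA against Veh (6.82%), against 57 without (3.34%). Their level at Veh was lower, with a median of 31.5 normalized tags against 43.9, and at KLA alike (53.2 and 53.0). Peaks with an AP-1 match had a median of 0.42 for KLA against Veh against 0.25 without, and peaks with a PU.1 match 0.15 against 0.34. A GC box went with 0.11 against 0.35 and a median GC content of 58.0% against 48.0%, and the part of base composition in these differences was not tested. The order for NF-kB p65 was alike in all distal peaks, where the medians were 0.71 with a match and 0.12 without.

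The NCoR f/f table gave a readout that took no part in the choice of the peaks. Its sets were larger, with 15473 peaks for NCoR f/f Veh, 18667 for NCoR f/f KLA, 7983 for NKO Veh and 14357 for NKO KLA, of 24867 merged peaks. The tags of the KLA and NKO libraries were not analysed here, so that only the listing is used for them. Of the 1846 peaks, 1506 (81.6%, 79.7% to 83.3%) overlapped a peak of that table by at least 1 bp, against 91.0% of all distal peaks. In the NCoR f/f KLA set, with no RGFP966 named, were 1231 (66.7%, 64.5% to 68.8%), against 79.3% of all distal peaks. The NCoR f/f Veh set held 812 (44.0%, 41.7% to 46.3%), against 3066 of the 4716 distal peaks. The NKO KLA set held 1041 (56.4%), against 71.3%, and the NKO Veh set 371 (20.1%), against 40.1%, so that each share was below that of all distal peaks.

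In each of these sets the share was lowest for the RGFP966 + KLA-listed peaks among the 4 classes, although for the NKO Veh set its interval overlapped that of KLA alone (20.1% against 22.8%). For the NCoR f/f KLA set it was 92.7% in the class of KLA and RGFP966 + KLA, 83.1% for KLA alone and 96.2% for all 3 conditions. The other classes are all listed in the WT KLA set, while the RGFP966 + KLA-listed peaks were chosen for absence from it. This choice favors a lower share in the sets of similar cells, and its part was not tested. Of the 1231 peaks in the NCoR f/f KLA set, 861 were also in the NKO KLA set (69.9%, 67.3% to 72.4%), against 89.9% (87.4% to 91.9%), 70.9% (66.0% to 75.4%) and 96.0% (94.4% to 97.2%) in those classes. The NKO KLA set was the smaller of the 2 KLA sets, and the depth of its libraries was not analysed here. Tags in the 2 NCoR f/f Veh libraries had a median of 11 and 15 at the overlapped peaks, against 25 and 35 in the class of all 3 conditions and 13 and 19 in that of KLA and RGFP966 + KLA.

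**Figure D5:**
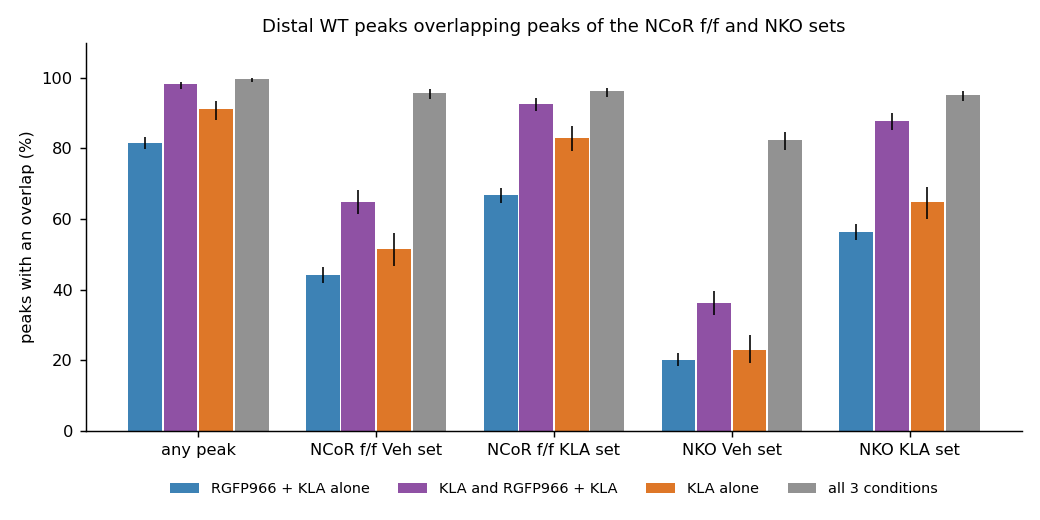
Share of distal WT peaks (vertical axis, %) that overlap any peak of the NCoR f/f table, or a peak in its NCoR f/f or NKO sets at Veh or KLA, in 4 classes by the WT sets that list the peak, with 95% Wilson intervals. Of the RGFP966 + KLA-listed peaks 66.7% were in the NCoR f/f KLA set and 44.0% in its Veh set, the lowest bars of each group.

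The listing in NCoR f/f cells sorted the peaks by their tags in the WT Veh and KLA libraries. The 572 peaks in the NCoR f/f KLA set but not its Veh set had medians of 4 and 4 tags at Veh and 11 and 6 at KLA, with a median log2 fold change of 0.69, and 79.7% of them were above 0. Those in both sets (659) had 7 and 7 at Veh and 11 and 6 at KLA and a median of 0.08, with 54.2% above 0. The 153 in the Veh set but not the KLA set had a median of -0.07 and 46.4% above 0. Of the 66 peaks called higher for KLA against Veh, 42 were among the 572 (7.34%) and 1 among the 659 (0.152%). Over all distal peaks, 176 of 1045 (16.8%) and 49 of 2697 (1.82%) were called higher in the matching groups. The medians had the same order over all distal peaks, at 0.83, -0.02 and -0.38. NF-kB p65 matches were in 10.5% of the 572, 5.19% of the 659 and 3.29% of the 153.

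No peak of the NCoR f/f table overlapped 340 of the 1846 (18.4%). These had medians of 3 and 3 tags at Veh, 7 and 4 at KLA, and 14 and 13 at RGFP966 + KLA, with a median log2 fold change of 0.80 for RGFP966 + KLA against KLA, where the 659 had 0.39. Their AP-1 share was 40.6%, their NF-kB p65 share 6.18% and their median GC content 46.0%. The peaks of Ap1s3 and H2afz above were among them, as was that of Gm15735. At the other end, the overlapping peaks with the most tags in the NCoR f/f libraries were those of Rn45s (166 and 220) and of Sfi1, Pisd-ps3 and 6430706D22Rik.

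By nearest TSS the 1846 peaks were assigned to 1561 genes, of which 1331 had 1 peak, 188 had 2 and 42 had 3 or more. Aebp2, a cofactor of Polycomb repressive complex 2, had the most, 6 peaks over 269 kb. Their tags ran from 0 to 9 at Veh, 2 to 16 at KLA and 9 to 18 at RGFP966 + KLA. One of them (chr6:140613915-140614115, in an LTR repeat with AP-1 and NF-kB p65 matches) had 1 and 0 tags at Veh, 10 and 6 at KLA, and 12 and 12 at RGFP966 + KLA. It was called higher for KLA and for RGFP966 + KLA against Veh. Fam49a, a regulator of the actin cytoskeleton, and 6430706D22Rik had 5 peaks each, and Fli1, an ETS factor of blood cells, had 4, of which 1 intronic peak held a PU.1 match. At the Fam49a peaks both RGFP966 + KLA libraries reached 9 to 24 tags, against 2 to 7 at Veh and 4 to 11 at KLA.

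The gene lists below are read against 3 backgrounds. Over all genes 1846 of 4716 distal peaks (39.1%) were RGFP966 + KLA-listed. Calls of a higher level at RGFP966 + KLA than at Veh took in 20.4% of the 1846 and 6.89% of all peaks, and those of a higher level at RGFP966 + KLA than at KLA 0.867% and 0.237%. A rise from Veh to KLA was called at 3.58% and 3.30%. The lists are small, and none was tested.

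Inflammatory cytokines and their receptors had 5 of the peaks, at 5 of 29 listed genes, out of 17 distal peaks at 9 of them (29.4%). Of these 1 rose with KLA relative to Veh, and with RGFP966 + KLA 0 did relative to KLA and 3 relative to Veh. Il12a, which encodes the p35 subunit of IL-12, had a peak in an intron (chr3:68693512-68693727) with 0 and 1 tags at Veh, 7 and 8 at KLA, and 10 and 12 at RGFP966 + KLA. It rose in both treated groups, by a pooled ratio of 12.3 (95% exact counting interval 1.90 to 520) at KLA, and the treated groups were alike in normalized tags (53.0 and 55.6). Il1a, the gene of IL-1 alpha, had an upstream peak (chr2:129320133-129320336, with an AP-1 match) with 1 and 3 tags at Veh, 5 and 7 at KLA, and 14 and 17 at RGFP966 + KLA, higher for RGFP966 + KLA against Veh. The peak nearest Csf3, which encodes G-CSF (chr11:98710471-98710688, in an intron of a neighboring gene), had 3 and 0, 4 and 6, and 16 and 9 tags and was called in the same comparison. At Il12b, the p40 subunit, 4 and 5 tags at Veh, 14 and 6 at KLA, and 14 and 10 at RGFP966 + KLA passed no test. Of 24 chemokine and receptor genes, which had 10 distal peaks, Ccrl2 had the only RGFP966 + KLA-listed one (10.0%), with 6 and 5, 18 and 3, and 21 and 21 tags, and its KLA libraries lay on either side of both Veh libraries.

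TLR4 and NF-kB signaling genes had 10 peaks at 9 of 42 genes, among 34 distal peaks (29.4%), and none rose with KLA relative to Veh, while with RGFP966 + KLA 1 was higher than with KLA and 1 than at Veh. Ly96 encodes MD-2, the lipid A-binding partner of TLR4, and had 2 peaks, the intronic one (chr1:16702932-16703222) with 9 and 5 tags at Veh, 10 and 5 at KLA, and 18 and 19 at RGFP966 + KLA. Tnfaip3, the NF-kB inhibitor A20, had an intronic peak (chr10:19009468-19009674) with 8 and 5, 9 and 5, and 13 and 23. At both, Veh and KLA overlapped in tags. The call for RGFP966 + KLA against KLA, named after its values were seen, was at Ripk2, a kinase of NOD signaling (6 and 5, 5 and 0, and 21 and 13 tags). The AP-1 and related bZIP genes had 7 peaks at 5 of 35 genes, among 29 distal peaks (24.1%), with no call in the 3 comparisons. The Fos peak (chr12:85455298-85455581, 18451 bp upstream) had 9 and 11, 15 and 7, and 13 and 15 tags, and the KLA libraries overlapped both other groups.

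Feedback regulators had 15 peaks at 10 of 29 genes, among 39 distal peaks (38.5%). Of these 15, 1 rose with KLA relative to Veh, and with RGFP966 + KLA 0 did relative to KLA and 5 relative to Veh. Dusp10, a phosphatase of the kinases p38 and JNK, had a peak (chr1:184085021-184085247, 50753 bp from the TSS) with 5 and 1 tags at Veh, 10 and 12 at KLA, and 32 and 17 at RGFP966 + KLA. Spred2, an inhibitor of Ras-ERK signaling, had a peak with a CpG island (chr11:19920190-19920482) with 6 and 5, 8 and 12, and 23 and 23 tags. Both were higher for RGFP966 + KLA against Veh, and at neither did KLA against Veh pass. Socs3 and Spry2, inhibitors of cytokine and growth factor signaling, had 3 peaks each. The other calls, named after their values were seen, were at Zc3h12a, the RNase Regnase-1, with 1 and 0, 9 and 7, and 12 and 13 tags, the peak that rose for KLA against Veh, and at 2 peaks of Pde4d, a phosphodiesterase that degrades cAMP. These had 2 and 2, 11 and 9, and 16 and 16 tags, and 0 and 2, 11 and 4, and 24 and 21 tags, and at both peaks KLA lay between Veh and RGFP966 + KLA.

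In the list of IRF, STAT and interferon response genes, 5 of 15 distal peaks (33.3%) were RGFP966 + KLA-listed, at 2 of 39 genes, Irf2 (3) and Rsad2 (2), with 1 call, for RGFP966 + KLA against Veh. It was at Rsad2, the antiviral protein viperin, where a peak with an IRF match (chr12:26439441-26439649) had 1 and 1 tags at Veh, 6 and 5 at KLA, and 12 and 15 at RGFP966 + KLA. A second Rsad2 peak, also with an IRF match, had 3 and 6, 12 and 11, and 14 and 15, alike in the KLA-treated groups. The Irf2 peak with the most tags had 10 and 6 at Veh, 8 and 2 at KLA, and 17 and 20 at RGFP966 + KLA.

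Macrophage lineage and osteoclast genes had the most peaks of any list, 25 at 14 of 37 genes, which were 52.1% of their 48 distal peaks. Relative to Veh, 2 rose with KLA and 2 with RGFP966 + KLA. Nfatc2, the T cell calcium-response factor, had an intronic peak (chr2:168539892-168540189) with 6 and 3 tags at Veh, 28 and 6 at KLA, and 20 and 19 at RGFP966 + KLA, called for KLA against Veh although the KLA libraries differed widely. Runx2, an osteoblast factor also named after its values were seen, had a peak with 0 and 2, 9 and 7, and 11 and 9 tags that was called against Veh in both treated groups. An intronic peak of Tcf4, an E protein, had 5 and 4, 8 and 7, and 24 and 18 tags and was called for RGFP966 + KLA against Veh. Etv3, an ETS repressor, had 3 peaks, of which the strongest had 5 and 9, 12 and 5, and 22 and 22.

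The corepressor list gave 5 peaks at 5 of 25 genes (among them Hdac4, Hdac7, Tbl1x and Tbl1xr1), out of 8 distal peaks at 6 genes (62.5%), and 0 calls. The intronic Hdac7 peak (chr15:97825103-97825308), at the gene of a class IIa deacetylase, had 10 and 6 tags at Veh, 5 and 6 at KLA, and 16 and 15 at RGFP966 + KLA. Lipid genes had 7 peaks at 7 of 30 genes, of 13 distal peaks (53.8%), with 1 call, for RGFP966 + KLA against Veh. Abca1, the cholesterol exporter, had an intronic peak (chr4:53149704-53149981) with 10 and 4, 13 and 7, and 16 and 12 tags, in which the groups overlapped in normalized tags. Of the 7 example genes of the study, a list that is not independent of these experiments, Il12a and Abca1 had 1 peak each. None of the 1846 was assigned to any of 35 marker genes of other marrow-culture cells, which had 5 distal peaks.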

How the data were processed

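WT BMDMs (Veh, KLA, RGFP966 + KLA) and NCoR f/f BMDMs (Veh) were profiled by ATAC-seq, with 2 libraries per group, 8 in all. The authors deposited raw tag counts per merged IDR peak, not normalized, with at most 3 tags counted per base position per the file headers, together with a peak score and a distance to the nearest TSS. The submitters' processing notes name Bowtie2, HOMER, DESeq2 and mm10, and versions were not given in the sources used here. Per the methods, IDR used the 2 best-correlated libraries of a condition.

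Members and gene lists were chosen with earlier results of these data known. All 9698 WT peaks had 4 tags or more in some library, the minimum set here, and were fitted together in edgeR 4.0.16 (glmQLFit and glmQLFTest, R 4.3.3) with total tags in peaks as library size and no covariate. The methods name DESeq2, run here as version 1.42.0 as an alternative. On simulated tags for KLA against Veh, with 200 of 9698 peaks changed, edgeR called 169 peaks, 161 of them changed. The planted changes were all well beyond 2-fold, with a small fixed spread between libraries. Most changes at the peaks described here were smaller, and recovery of such changes was not measured. Sequence came from GRCm38.p6, which has the coordinates of mm10, and overlaps with the NCoR f/f table needed 1 bp. Intervals are 95% Wilson intervals unless named exact, and cover counting error only, because without molecular identifiers tags are not independent molecules. Python 3.11.15 with pandas 2.3.3, scipy 1.17.1, pysam 0.24.0 and matplotlib 3.10.9 did the rest.

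Peaks named were, by rule, the 10 highest at RGFP966 + KLA, the 10 largest and 3 smallest fold changes against KLA among non-overlapping peaks with a mean of at least 20 tags, up to 3 per gene list, the 5 gained and 5 lost for KLA against Veh with the largest change among those called, the 5 genes with most peaks, the peaks next to 2 kb, and the extremes in the NCoR f/f table. Up to 6 sequences came from the first 2 of these groups, and their order was chosen after values were seen. Alternatives were other library scalings, filters, tests, fold thresholds, distances, windows and overlaps, the replicate block, and each library left out. Restriction to chromosomes 1 to 19, X and Y was added after the data were seen. Some genes counted in the lists are not reported here by name.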

Additional observations from a re-analysis of the deposited data

How the results depend on the processing

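Depth limits these results: with a median of 5 to 15 tags per peak and library, 577 and 560 of the 1846 peaks had 3 tags or fewer in the Veh libraries and 62 and 384 in the KLA libraries. For KLA against Veh, RGFP966 + KLA against KLA and RGFP966 + KLA against Veh in turn, peaks called higher numbered 66, 16 and 376 and the medians were 0.33, 0.49 and 0.80 (log2). DESeq2 called 0 in each with its own or with total-tags size factors, and at most 1 of all WT peaks in any comparison. A filter of 16 tags, which kept fewer peaks, gave 42, 10 and 221 (median 0.83 against Veh), and loess offsets 9 and 146 in the last pair, with medians 0.21, 0.28 and 0.46. The count of 66 became 43 with only the 4 libraries of the comparison. Library sizes from all tags gave 32 for the second comparison, with medians 0.67 and 0.91 for the last 2, and from tags in peaks of all 3 conditions 32, 0.59 and 0.95. The last median was 0.75 with TMM factors or DESeq2 size factors in edgeR and 0.76 in DESeq2. Scaling moved the median of all peaks by at most 0.18 (all tags, second comparison, to 0.21). With each library left out the counts ran from 16 to 66, 0 to 22 and 121 to 394, and the medians from 0.20 to 0.39, 0.49 to 0.62 and 0.78 to 0.89. Where not stated, the cause was not tested. No median of the 1846 peaks changed direction under these settings. That of all peaks did, to -0.05 for KLA against Veh with all tags and to -0.01 for RGFP966 + KLA against both other groups with TMM factors, and it lay between -0.01 and 0 against Veh with DESeq2 size factors and for KLA against Veh without KLA replicate 1.

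With the replicate number as a block, the counts were 71, 22 and 403. Replicate 1 minus replicate 2 correlated between groups by 0.02 in each of the 3 pairs. Counting noise at low tags can hide a shared origin, so this does not show whether equal numbers mark a shared mouse or culture.

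An overlap of 50% of both peaks gave 76.0% with any NCoR f/f table peak and 40.8% in its Veh set. A window of 400 bp gave 10.0% with NF-kB p65 and 45.2% with AP-1, and the whole peak gave 40.5% with AP-1. A distance of 1 kb or 10 kb gave 1925 and 1438 peaks.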
